A study of Homo sapiens with 24 samples.

Results

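Cells made to express the microRNA miR-28 were compared with control cells after 24 h of induction. The comparison covers 12 of the 24 arrays of the study, chosen by their titles: 6 arrays of miR-28 cells and 6 of control cells. All cells were P3HR1, an established human line from a Burkitt lymphoma with Epstein-Barr virus, grown in IMDM with 10% FCS. Both groups carried a pRTS1 vector that is switched on by doxycycline. In control cells the vector made green fluorescent protein (GFP) alone, and in miR-28 cells it made GFP and the miR-28 precursor. For each vector 2 bulk populations, A and B, had been established, and each was induced 3 times for 24 h. For the dose of doxycycline the labels hold both 0.1 ug/ml and 1 ug/ml, in separate fields and for every group. Every array was of induced cells, so a difference between populations that was there before induction cannot be told apart from one that followed it. The arrays of a group are separate inductions of the same 2 populations, and the p-values measure the spread between these arrays. The remaining 12 arrays, of the same populations after 12 h, entered the model and give the earlier values quoted beside some genes.

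MicroRNAs are short RNAs that guide Argonaute proteins to messenger RNAs, mostly through pairing of the seed, bases 2 to 8 of the mature strand, with sites in the messenger. The paired messenger is translated less and is often degraded sooner. The miR-28 gene lies in an intron of LPP, and its precursor yields the strands miR-28-5p and miR-28-3p. In mature B cells miR-28 is known as a microRNA of germinal centre cells whose level is low in many B-cell lymphomas, Burkitt lymphoma among them. The sequence of miR-28-3p (RefSeq, GRCh38.p14, chr3:188688834-188688855, plus strand) is shown because it is a product of the precursor that sets the groups apart, with its seed in capitals. None of the other mature microRNAs listed in the same table has this seed. That table is not complete: it has no entry for miR-28-5p, whose sequence is therefore not shown.
hsa-miR-28-3p: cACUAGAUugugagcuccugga

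After 24 h, 256 genes were higher and 275 were lower in miR-28 cells than in control cells. These are 2.25% and 2.42% of the 11380 genes tested, together 4.67%, at an adjusted p under 0.05 in limma. All differences are miR-28 minus control on the scale of log2(intensity + 8), where 8 is a pseudocount that shrinks the differences of dim genes. Most differences were small: 78 of the genes that rose and 52 of those that fell changed at least 1.5-fold, and the median difference over all genes tested was 0.02. Among the called genes the differences were larger for dim ones. Of the genes with a mean intensity up to 300, 27 rose and 8 fell, with median sizes of 1.08 and 0.90. Of those above 3000, 59 rose and 108 fell, with median sizes of 0.35 and 0.38. A gene with more spread between arrays must differ more to be called. These sizes therefore follow in part from the choice, and do not show that dim genes changed more. Of the called genes, 6 that rose had a control mean under the brightness needed for testing. A further 3 that fell had a miR-28 mean under it. The 6 miR-28 arrays lay entirely above the 6 control arrays for 133 of the genes that rose, and entirely below them for 176 of those that fell. Over all genes tested the arrays did not overlap for 182 (1.6%) above and 216 (1.9%) below, together 3.5%. With the 12 arrays at 24 h alone 138 genes rose and 175 fell. With the means of populations as samples, 2 against 2 at 24 h, limma called 0 genes (lowest adjusted p 0.087). In that fit 1671 genes had an unadjusted p under 0.05, 525 of the 531 called genes among them. As these means come from the arrays that gave the 531 calls, that overlap follows from the choice and does not bear the calls out. The balance of rises and falls depended on scaling. Rises were 48.2% of the calls on the deposited scale, 32.3% after centring each array on the median of the genes tested and 70.7% after centring on the median of all probe sets, with 183 and 285 rises and 384 and 118 falls.

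The deposited columns had a common trimmed mean of 500.07 to 500.08, which comes from scaling and does not show that the arrays were alike. The median intensity of the 24 h arrays spanned 73.37 (miR-28 B2) to 92.02 (control B3). One array, control population B induction 2, stood apart. The ACTB control probe sets at the 3' end exceeded those at the 5' end by 1.59 (log2) on it, against 0.304 to 0.865 on the other 24 h arrays. This difference is a sign of RNA quality. Without it 268 genes were higher and 247 lower, of which 205 and 215 were among the calls above. Among the genes named here, 24 of 144 calls were lost without that array, those of AGO1, ARHGAP25, BLNK, BUB1, BUB1B, CCNB1, CCNB2, CD52, CDCA5, CDK1, EZH2, GNG7, HJURP, HLA-DQA1, MCM4, MCM6, MIS18A, MORF4L2-AS1, NCAPG, POU2AF1, RFC5, RGS13, STXBP4 and TMLHE. All 24 kept their direction, at 0.747 to 1.03 times the difference with all arrays. The cells carried B-cell messages, with a median intensity of 8671.8 over 9 B-cell markers, while the medians of T-cell (63.5), myeloid (59.7), NK-cell (46.2) and fibroblast or epithelial (45.2) markers were low. The summed B-cell markers spanned 76695 to 91252 on control arrays and 79810 to 94570 on miR-28 arrays. None of the markers of any of the 5 cell types was called, and LCK, listed as a T-cell marker, was at 5254.3. In bulk RNA, fewer cells of a kind and less RNA per cell cannot be told apart.

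Of 4 genes reported as targets of miR-28 in B-cell lymphoma, RAP1B and BAG1 fell at 24 h, and MAD2L1 and RAB23 did not pass the test. RAP1B encodes a RAS-like GTPase that acts in integrin adhesion and B-cell receptor signalling. Its intensity was 15761, 16652 and 19935 on control arrays (lowest, median and highest of 6 arrays, the order used throughout) and 10523, 11314 and 12809 on miR-28 arrays. The groups did not overlap, and RAP1B fell by 0.57 ± 0.07 (log2 ± SE, 6 against 6 arrays; adjusted p 3.28e-05), -0.47 in population A and -0.67 in population B. BAG1, a cochaperone of HSP70 that opposes cell death, was at 3969, 4158 and 4775 on control arrays and 2933, 3191 and 3451 on miR-28 arrays. Here too every miR-28 array lay below every control array. BAG1 fell by 0.40 ± 0.07 (adjusted p 0.00103), and its other probe sets gave -0.49 ± 0.08 and -0.51 ± 0.10, both called.

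MAD2L1, a spindle checkpoint protein, had control intensities of 4631, 5987 and 8725 and miR-28 intensities of 3378, 4245 and 5456, so the groups overlapped. Its brightest probe set gave -0.52 ± 0.15 and narrowly missed the threshold (adjusted p 0.0541), while its second, with -0.54 ± 0.10, passed in the test of all probe sets (adjusted p 0.00311). For RAB23, a GTPase of membrane traffic and Hedgehog signalling, the probe set used gave -0.19 ± 0.22, and a dimmer one gave -1.38 ± 0.36 (adjusted p 0.0387 over all probe sets). Of 6 tested genes reported as targets in other cell types, TEX261 fell by 0.46 ± 0.09 (adjusted p 0.00238), with control arrays at 2338, 2583 and 2746 and miR-28 arrays at 1639, 1859.9 and 2226. NFE2L2, the antioxidant response factor, gave -0.57 ± 0.20 with overlapping groups (adjusted p 0.101). Values for E2F6 (-0.25), NME1 (0.03), N4BP1 (0.11) and HOXB3 (0.18) did not pass. These genes were chosen from earlier reports and with earlier results of these data known, so their falls are no independent check of those reports. A called fall does not separate a direct target from a gene further along.

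LPP, the host gene, encodes a focal adhesion protein. Its brightest probe set was at 2107, 2359 and 3184 on control arrays and at 1128, 1487 and 1579.7 on miR-28 arrays, without overlap, and fell by 0.81 ± 0.12 (adjusted p 0.000283). The other LPP probe sets all gave differences below 0, from -0.06 ± 0.23 to -0.86 ± 0.38, and the second brightest was called at -0.80 ± 0.15. At 12 h LPP was already lower, at -0.67 (adjusted p 0.0152).

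Genes of the microRNA machinery moved in both directions. Among 17 tested genes of microRNA biogenesis and silencing 2 rose and 2 fell, with a list median of 0.09. Over all genes 2.25% rose and 2.42% fell. DICER1, the enzyme that cuts precursors into mature microRNAs, was at 2778, 3252 and 3753 on control arrays and at 4319.7, 5160.2 and 6340.0 on miR-28 arrays. All miR-28 arrays were higher, and DICER1 rose by 0.68 ± 0.11 (adjusted p 0.000441). The other DICER1 probe sets gave 0.54 ± 0.13, which was called, 0.32 ± 0.10 and, on the dimmest, -0.14 ± 0.60. AGO2, the Argonaute protein that can cleave targets, fell by 0.61 ± 0.15 (adjusted p 0.0169), with control arrays at 1809, 2472 and 3289 and miR-28 arrays at 1497, 1579 and 1929, and the groups overlapped at their edges. AGO1, another Argonaute, fell by 0.50 ± 0.14 (adjusted p 0.0461, 0.0663 without control B2), with its other 3 probe sets below 0 and not called. TNRC6A, the scaffold that joins Argonaute to deadenylases, rose by 0.37 ± 0.10 (adjusted p 0.0357), a call lost in 18 of 28 alternative settings. Its second brightest probe set was called at 0.36 ± 0.10. The rest were not called, and the only one below 0 gave -0.31 ± 0.27. The list's remaining members, among them DROSHA (-0.04) and XPO5 (0.16), did not pass.

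**Figure D1:**
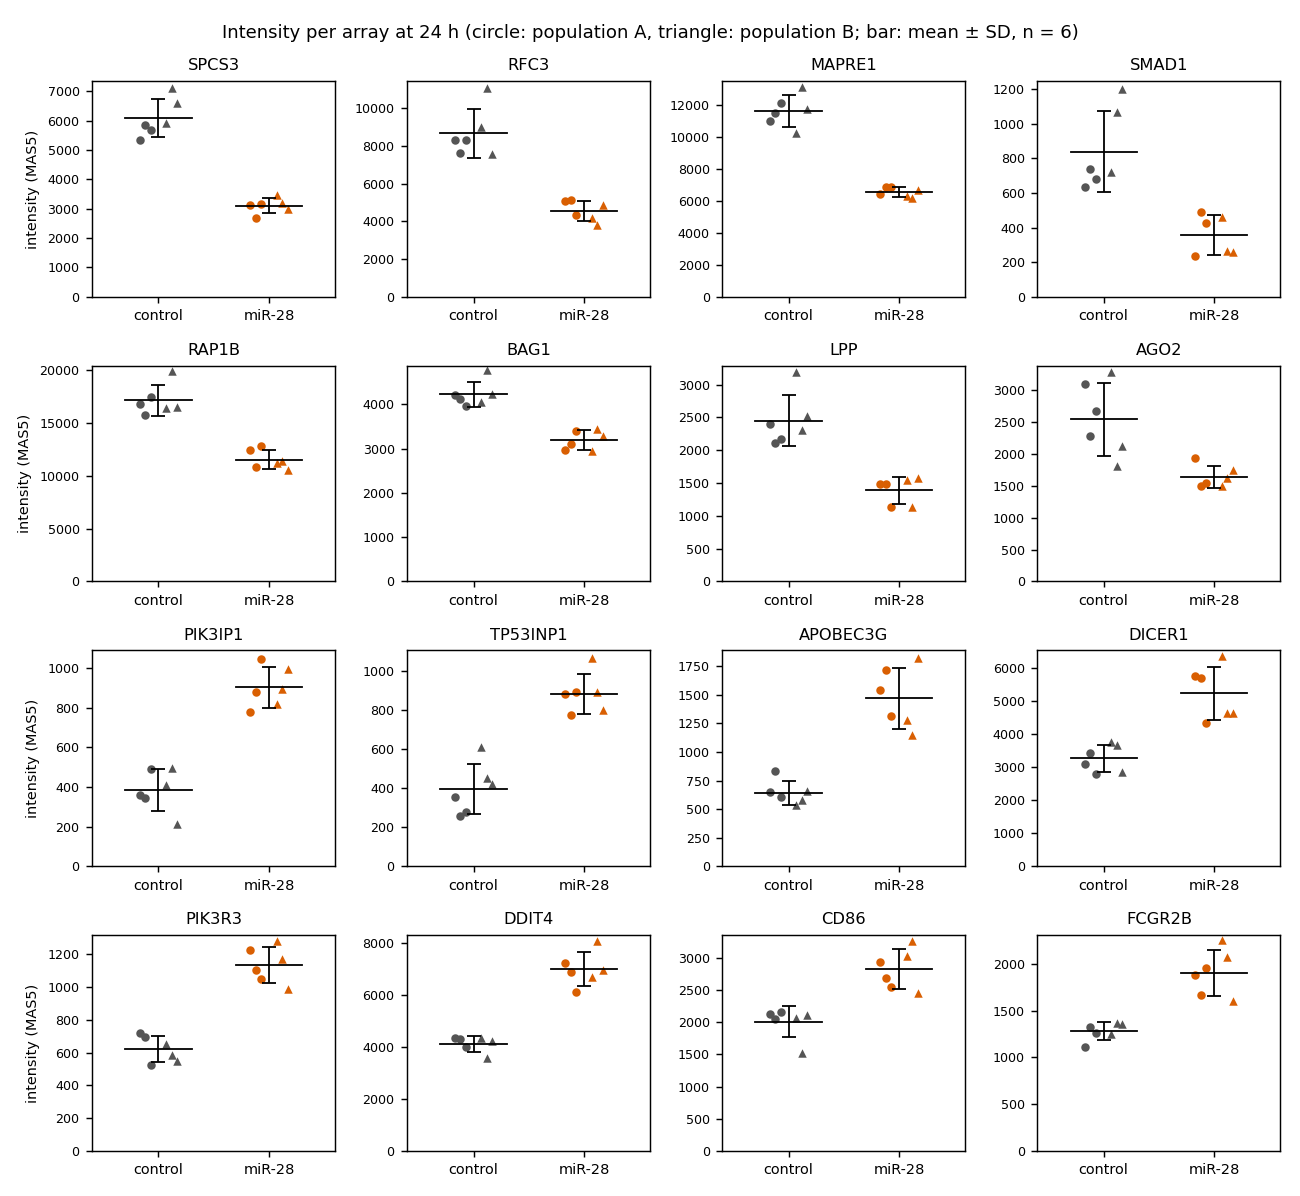
MAS5 intensity on each 24 h array (y axis, linear, from 0) for 16 named genes in control and miR-28 cells. Circles are population A and triangles population B, and the bar is the mean ± SD of 6 arrays. The groups do not overlap in any panel but that of AGO2.

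SPCS3, a subunit of the signal peptidase that trims secreted proteins, had the smallest p of all genes tested. It was at 5335, 5879 and 7124 on control arrays and at 2674, 3140.4 and 3459 on miR-28 arrays, and fell by 0.97 ± 0.08 (adjusted p 3.56e-07). The fall rested on the brightest of its 3 probe sets, as the others gave -0.00 ± 0.12 and -0.09 ± 0.09. SKA1, which holds kinetochores on microtubules, had the largest fall of a list member, 1.47 ± 0.22 or 2.77-fold (adjusted p 0.000239). Its control arrays were at 715, 940.4 and 1183 and its miR-28 arrays at 193, 361 and 484, and it was lower at 12 h too, by -1.02. SKA1 has 1 probe set over the brightness filter, so no other measured it.

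Falls that a second probe set bore out were led by SMAD1, RFC3, SLC37A4, HDLBP and MAPRE1. SMAD1, the messenger of bone morphogenetic protein receptors, was at 633, 729 and 1199 on control arrays and 238, 344 and 491 on miR-28 arrays, and fell by 1.24 ± 0.19 (adjusted p 0.000283). No arrays overlapped, and the fall was -0.88 in A and -1.60 in B. Its second probe set gave -0.90 ± 0.23. RFC3, part of the complex that loads the replication clamp, was at 7574, 8324 and 11072 in control cells and at 3783, 4592 and 5108 in miR-28 cells, and fell by 0.92 ± 0.10 (adjusted p 9.54e-06). Its second probe set gave -0.84 ± 0.11.

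SLC37A4, which carries glucose 6-phosphate into the endoplasmic reticulum, fell by 0.86 ± 0.10, from a median of 944 to 543. HDLBP, an RNA-binding protein also called vigilin, fell by 0.83 ± 0.09, and its other 3 probe sets gave -0.95 ± 0.11, -0.57 ± 0.12 and -0.37 ± 0.19. MAPRE1 encodes EB1, which tracks the growing ends of microtubules. It was at 10246, 11669 and 13182 on control arrays and 6168, 6589.8 and 6886 on miR-28 arrays, with the miR-28 arrays close together and far from the controls. MAPRE1 fell by 0.82 ± 0.09 (adjusted p 9.93e-06), and at 12 h it was at -0.31 and not called.

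Further falls that another called probe set bore out were GLRX (-0.80), a glutaredoxin, ATP6V1A (-0.76), a subunit of the proton pump of lysosomes, NXT2 (-0.75), an export factor of messenger RNA, G3BP2 (-0.72), a stress granule protein, NBPF20 (-0.71) and the transcription factor NFIA (-0.62). The arrays overlapped for GLRX and NBPF20, and NBPF20 belongs to a family of near-identical copies that probe sets may not separate. Among genes with 1 probe set, WSB2, a substrate adaptor of ubiquitin ligases, fell by 1.16 ± 0.16, with control arrays at 851, 1136 and 1649 and miR-28 arrays at 398, 498 and 591. CCND3, cyclin D3, a driver of the entry into S phase in germinal centre B cells and often mutated in Burkitt lymphoma, fell by 0.86 ± 0.11 (adjusted p 3.28e-05). Its control arrays lay at 9046, 10315 and 11566 and its miR-28 arrays at 4381, 5709 and 6455, without overlap. SLC68A1 (-0.75), the WEE1-like kinase PKMYT1 (-0.73) and GCHFR (-0.69), a regulator of tetrahydrobiopterin synthesis, fell as well.

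The largest rise that a second probe set bore out was that of PIK3IP1, a membrane protein that restrains PI 3-kinase. It was at 212, 385 and 497 on control arrays and 777, 889.9 and 1048 on miR-28 arrays. The ranges lay far apart, and PIK3IP1 rose by 1.26 ± 0.17, or 2.39-fold (adjusted p 7.79e-05). Its other probe sets gave 1.14 ± 0.20 and 0.53 ± 0.27. PIK3R3, a regulatory subunit of the same kinase, was at 522, 619 and 718 on control arrays and 989.5, 1137 and 1279 on miR-28 arrays, and rose by 0.87 ± 0.09 (adjusted p 8.63e-06).

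TNFSF10, the ligand known as TRAIL, rose by 0.88 ± 0.19 (adjusted p 0.00649), with control arrays at 145, 263 and 422 and miR-28 arrays at 386, 485 and 625, and the groups overlapped. CASP8, the caspase that death receptors activate, was at 897, 942 and 1024 on control arrays and at 1213, 1412 and 1644 on miR-28 arrays, without overlap. CASP8 rose by 0.56 ± 0.10 (adjusted p 0.00168), and its second probe set gave 1.19 ± 0.28. CASP8 was the one call among 22 tested regulators of apoptosis, beside 4.67% called over all genes. The median of the 22 was 0.04, and BCL2 (-0.02) and BCL2L11 (0.04) were near 0. TP53INP1, a p53 target that acts in autophagy and cell death, was at 255, 387 and 610.1 on control arrays and 771, 885 and 1063 on miR-28 arrays, and rose by 1.20 ± 0.15 (adjusted p 4.9e-05). GADD45A, a stress-induced p53 target, rose by 0.65 ± 0.12. The other 14 of 16 p53 targets did not pass, with CDKN1A at -0.27 and MDM2 at -0.37.

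Further rises with agreeing probe sets were MTERF2 (0.88), a mitochondrial transcription factor, melanoregulin, MREG (0.87), CALHM6 (0.85), the Fc receptor-like gene FCRL2 (0.73), ANKRD44 (0.70), CD52 (0.65), a short glycoprotein of lymphocytes, the lysosomal protease CTSS (0.62), ARHGAP25 (0.58) and the actin-binding gene LIMA1 (0.56). Of genes with 1 probe set, MAML3, a coactivator of Notch, rose by 1.34 ± 0.26, with control arrays at 164, 249 and 317 and miR-28 arrays at 406, 630.1 and 867. MAML3 differed more in A (1.84) than in B (0.83), a difference that did not pass its test. APOBEC3G, a cytidine deaminase that restricts retroviruses, rose by 1.18 ± 0.16 (adjusted p 8.68e-05), with control arrays at 533, 627 and 833 and miR-28 arrays at 1150.1, 1428 and 1824. TNFSF9, the 4-1BB ligand, rose by 1.16, LY96, a partner of TLR4, by 0.93, and PLAC8 by 0.93.

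Over the 12 lists of DNA replication, mitosis and repair 229 genes were tested: 54 fell, 175 did not pass, none rose, and 196 had a difference below 0, with a median of -0.27 against 0.02 over all genes. The 12 include the lists of G1 cyclins, E2F factors and chromatin genes. The lists of histones (0 of 6 called, median 0.12) and of microtubule plus ends (1 of 15 lower, median -0.14) were not among them. Lists and members were chosen with earlier results of these data known. The 54 are 23.6% of the 229 genes tested, beside 2.42% over all genes. The medians were -0.26 in population A and -0.24 in B, and -0.05 at 12 h. On 43 of the 229 genes all miR-28 arrays lay below all control arrays, beside 1.9% of all genes. The count depends on scaling and on arrays: 72 fell after centring on the genes tested, 23 after centring on all probe sets, 57 after quantile normalization, 34 with the 12 arrays alone and 38 to 58 when 1 array was left out (47 without control B2). Within population A alone 3 were called lower and within B alone 4.

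The complexes that mark replication origins and open them had 8 of 23 members lower, and 22 of the 23 were below 0. MCM10, which helps open origins, was at 2173, 2290.3 and 2493 on control arrays and at 1342, 1643 and 1691 on miR-28 arrays. It fell by 0.55 ± 0.10 (adjusted p 0.00238) with no overlap. ORC1, a subunit of the origin recognition complex, fell by 0.52 ± 0.10, GINS1, GINS2 and GINS3 of the replicative helicase by 0.47, 0.44 and 0.48, and the kinase CDC7 by 0.45. Helicase subunits MCM4 (-0.38) and MCM6 (-0.26) were called with all arrays, and without control B2 they gave -0.37 and -0.23 and did not pass. Averaged over the 23 genes and centred on the control mean, control arrays spanned -0.04 to 0.06 and miR-28 arrays -0.39 to -0.19, with both populations low.

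At the replication fork all 26 tested genes were below 0, and 8 fell. Beside RFC3 they were RFC4 (-0.47), the primase subunit PRIM1 (-0.46), the polymerase subunits POLD3 (-0.40) and POLE2 (-0.39), the fork protection factor TIMELESS (-0.37), RFC5 (-0.36) and PCNA (-0.34), the sliding clamp. PCNA was bright on every array, at 15739, 18302 and 19194 in control and 12216, 14211 and 15827 in miR-28 cells, and the groups overlapped slightly. The count of 8 was 5 without miR-28 B1 or B2, and 3 after centring on all probe sets. The ribonucleotide reductase genes RRM1 and RRM2, which make deoxynucleotides, fell by 0.47 ± 0.11 and 0.37 ± 0.07. Of 18 E2F, RB and DP factors 3 fell, but 1 did after centring on all probe sets, with the mean of probe sets, without control A1 or without miR-28 A2. E2F2, an activator of S-phase genes, was at 2071, 2392 and 2617 on control arrays and 1079, 1391 and 1806 on miR-28 arrays, fell by 0.77 ± 0.10 (adjusted p 4.9e-05), and was called at 12 h as well (-0.48). E2F7 (-0.49) and MYBL2 (-0.47) fell too.

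Of 16 G2/M cyclins, kinases and phosphatases 9 fell: PKMYT1, the transcription factor FOXM1 (-0.47), CCNA2 (-0.45), the Aurora kinase AURKA (-0.42) and its activator BORA (-0.35), CDK1 (-0.30), TPX2 (-0.29), CCNB2 (-0.27) and CCNB1 (-0.26). The count was 5 without control A3 or miR-28 A3, B1 or B2, and 4 with the 12 arrays alone or after centring on all probe sets. FOXM1 was at 1307, 1433 and 1547 on control arrays and at 861, 989.7 and 1275 on miR-28 arrays, without overlap. The calls of CDK1, CCNB1 and CCNB2 were lost without control B2, and the dimmer CCNB2 probe set gave 0.33 ± 0.26.

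Of 29 kinetochore and centromere genes 8 fell, among them SKA1, CENPO (-0.56), SKA3 (-0.49), KNL1 (-0.46), CENPE (-0.44) and CENPU (-0.43). CENPU, part of the inner kinetochore, was at 8162, 9173 and 11118 on control arrays and at 5949.9, 7026 and 7489.7 on miR-28 arrays, with no overlap. In the spindle checkpoint and anaphase-promoting complex list 4 of 20 fell, led by CDC20 (-0.47) and ZWINT (-0.33), but none did with the 12 arrays alone and 2 did without control A1, control B2 or miR-28 B1. ANLN (-0.51), KIF15 (-0.51) and KIF4A (-0.29) fell among 16 kinesins and cytokinesis genes. Separase, ESPL1, which cuts cohesin at anaphase, fell by 0.51 ± 0.08 (adjusted p 0.000714), and the condensin subunits NCAPH and NCAPG by 0.42 and 0.32. Of 18 recombination and Fanconi repair genes BRCA1 (-0.50), BLM (-0.46) and RAD51C (-0.28) fell, and EZH2 (-0.39), the H3K27 methyltransferase, was the one call of 18 chromatin genes. None of 6 tested histone genes was called, and their median was 0.12.

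**Figure D2:**
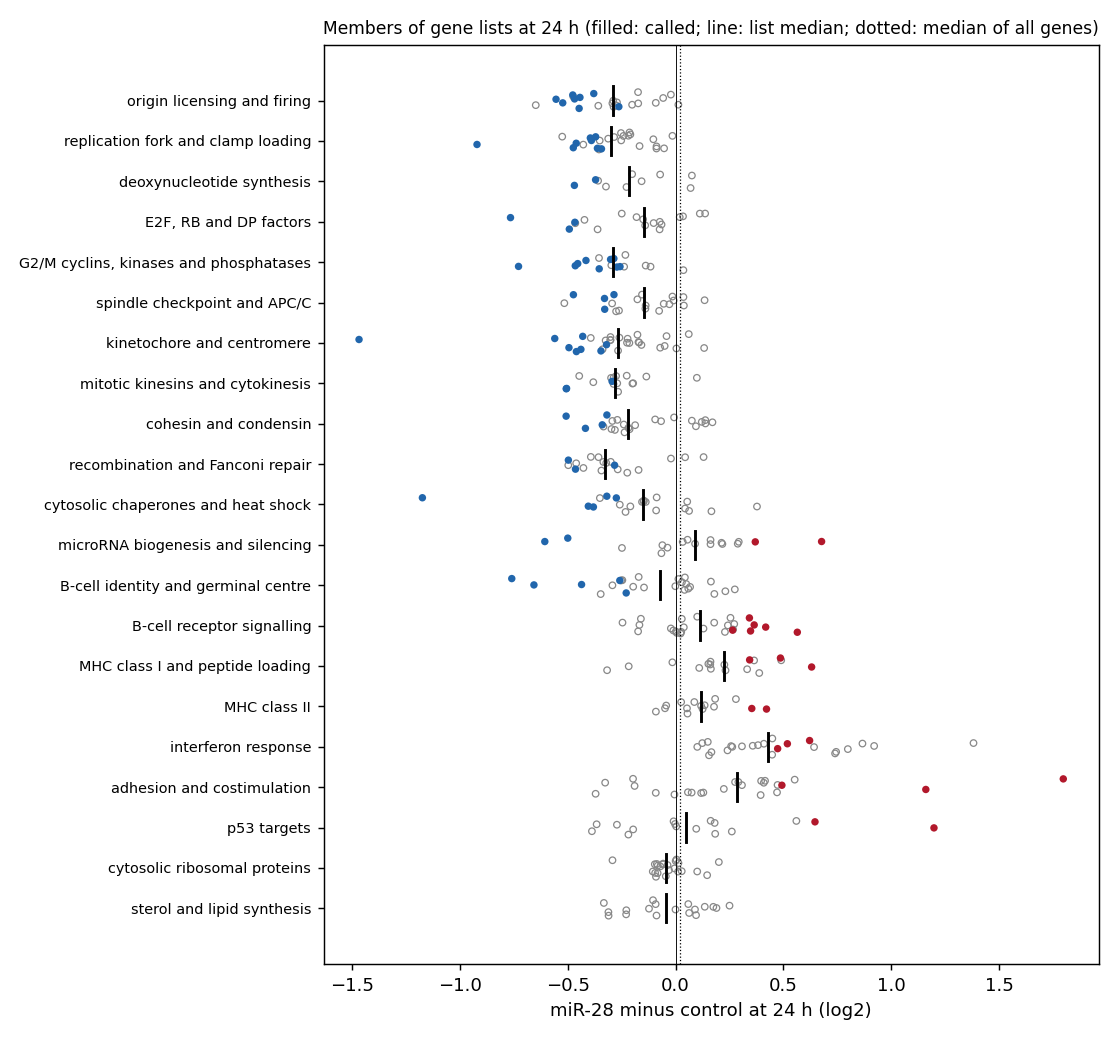
Difference at 24 h (x axis, log2, miR-28 minus control) of each tested member of 21 gene lists (rows). Filled points passed the test, blue lower and red higher, vertical bars are list medians and the dotted line is the median of all genes, 0.02; the replication and mitosis lists sit left of it and the interferon list, at 0.43, right of it.

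The start sites of these genes were searched for textbook motifs, in 300 bases from 250 before to 50 after the start of the gene (RefSeq, GRCh38.p14). A promoter was found for 9285 of the 11380 genes tested. The E2F site was searched as TTTGGCGC, TTTCCCGC, TTTGCCGC or TTTCGCGC and the cell cycle gene homology region (CHR) as TTTGAA, on both strands. An E2F site was found in 11.6% of promoters of genes that fell, 0.9% of those of genes that rose, and 5.3% of those of all genes tested. In the origin list it was found in 10 of 20 promoters and in the fork list in 8 of 22. The CHR letters were found in 15%, 13.4% and 10.3% of the same 3 sets, in 11 of 24 kinetochore promoters and in 5 of 11 G2/M promoters. Outside the cell-cycle and repair lists, genes that fell held an E2F site in 7.5% of promoters and the CHR in 10.2%. A match describes the letters and is neither a site of binding nor a cause.

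The 100 bases before the start are printed for 3 genes that fell and hold an E2F site (RFC3, E2F2, PCNA) and for 3 that fell and hold a CHR (CCNB2, ESPL1, NCAPG), as examples of where the motifs lie. Capitals mark the motif. RFC3 lies at chr13:33818049-33818148 on the plus strand, E2F2 at chr1:23531234-23531333 on the minus strand, PCNA at chr20:5126623-5126722 on the minus strand, CCNB2 at chr15:59105046-59105145 on the plus strand, ESPL1 at chr12:53268199-53268298 on the plus strand and NCAPG at chr4:17810879-17810978 on the plus strand. The E2F letters begin 55, 42 and 59 bases before the start in RFC3, E2F2 and PCNA, and the CHR 29, 31 and 35 bases before it in CCNB2, ESPL1 and NCAPG.
RFC3 promoter: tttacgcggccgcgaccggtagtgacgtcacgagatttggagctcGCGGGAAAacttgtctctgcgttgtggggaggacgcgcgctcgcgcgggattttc
E2F2 promoter: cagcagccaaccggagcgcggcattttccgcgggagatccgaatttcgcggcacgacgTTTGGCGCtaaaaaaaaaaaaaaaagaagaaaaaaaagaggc
PCNA promoter: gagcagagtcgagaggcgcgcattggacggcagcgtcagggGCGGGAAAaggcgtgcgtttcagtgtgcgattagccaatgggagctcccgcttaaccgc
CCNB2 promoter: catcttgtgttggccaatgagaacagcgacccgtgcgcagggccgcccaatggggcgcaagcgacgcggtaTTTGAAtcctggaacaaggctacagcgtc
ESPL1 promoter: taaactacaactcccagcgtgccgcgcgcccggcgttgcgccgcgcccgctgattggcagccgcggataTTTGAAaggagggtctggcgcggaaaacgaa
NCAPG promoter: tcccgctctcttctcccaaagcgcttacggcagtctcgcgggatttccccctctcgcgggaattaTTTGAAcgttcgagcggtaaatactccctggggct

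Over 6 lists of B-cell receptor signalling, interferon response, antigen presentation, NF-kB, adhesion and costimulation, 129 genes were tested: 18 rose, 111 did not pass, none fell, and 105 had a difference above 0, with a median of 0.18. The 18 are 14% of these genes, beside 2.25% over all genes. All miR-28 arrays lay above all control arrays for 10 of the 129, beside 1.6% of all genes. After centring on the genes tested 16 rose and 1 fell, and after centring on all probe sets 24 rose and 0 fell. With the 12 arrays alone 11 rose, and with 1 array left out 14 to 22 did (19 without control B2). Within either population alone none was called higher. The list of B-cell identity, in which 5 of 24 genes fell, was not among the 6. These lists too were chosen with earlier results of these data known.

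Of 26 genes of B-cell receptor signalling 6 rose. FCGR2B, the inhibitory Fc receptor of B cells, was at 1112, 1293 and 1369 on control arrays and 1600.4, 1919.7 and 2253 on miR-28 arrays. The groups did not overlap, and FCGR2B rose by 0.56 ± 0.10 (adjusted p 0.00145), 0.57 in A and 0.56 in B. The inhibitory receptor CD72 rose by 0.42 ± 0.08, the adaptor BANK1 by 0.36 ± 0.07, the kinases SYK and BTK by 0.35 ± 0.08 and 0.34 ± 0.08, and the adaptor BLNK by 0.26 ± 0.07. All 3 BANK1 probe sets were called, as were 3 of the 4 of SYK. The receptor chain CD79A was at 0.00 and not called. In the list of B-cell identity 5 of 24 genes fell, beside 2.42% lower over all genes, and none rose. They were the germinal centre genes RGS13 (-0.76) and SERPINA9 (-0.66), and the transcription factors TCF3 (-0.44), MEF2C (-0.26) and POU2AF1 (-0.23). That count was 1 after centring on all probe sets, 1 with the 12 arrays alone, 1 without miR-28 B2, 2 without control A1 or A3, and 3 without control A2, B2 or B3 or miR-28 A2, A3 or B1. Of the other 10 TCF3 probe sets none was called, and 3 were above 0.

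CD86, a ligand of CD28 on T cells, was at 1527, 2091 and 2157 on control arrays, where control B2 was the low value, and 2455, 2817 and 3265 on miR-28 arrays. CD86 rose by 0.49 ± 0.08 (adjusted p 0.000945), and its other probe sets gave 0.31 ± 0.09 and 0.45 ± 0.13. CD28 itself, which is at home in T cells, was dim, at 5.33, 21 and 107 on control and 62.5, 129 and 179 on miR-28 arrays, and rose by 1.80 ± 0.47 with overlapping groups. Its control mean of 5.16 (log2) lay under the brightness filter of 6.108, which it passed through the miR-28 arrays, so the difference rests on a level near background. Without CD28 17 of these immune genes rose. CD86, CD28 and TNFSF9 were the 3 calls among 24 genes of adhesion and costimulation, of which 18 were above 0.

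Of 17 class I and peptide loading genes tested 3 rose, and of 15 class II genes 2 did, beside 2.25% over all genes. The class II count was 1 after centring on the genes tested, with the mean of probe sets or without control B2. With the 12 arrays alone both counts were 1, and with 1 array left out the class I count was 3 to 5. HLA-B rose by 0.49 ± 0.12 and HLA-C by 0.34 ± 0.08, NLRC5, the activator of class I genes, by 0.63 ± 0.13, and the class II genes HLA-DOA and HLA-DQA1 by 0.42 ± 0.09 and 0.35 ± 0.10. Probe sets of the class I genes can bind each other's transcripts, so HLA-B and HLA-C may not be separate measures. The class I peptide transporter TAP1 was at -0.22 and its partner TAPBP at -0.32, neither called. CCL4, a chemokine induced by NF-kB, rose by 0.79 ± 0.17, and was the one call among 25 NF-kB genes.

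All 24 interferon-response genes were above 0, with a median of 0.43, but 3 passed the test. IRF9, the DNA-binding part of the interferon-activated complex, was at 676, 821 and 998 on control arrays and 1034, 1235 and 1545 on miR-28 arrays and rose by 0.62 ± 0.11 (adjusted p 0.00129), by 0.61 in A and 0.63 in B. ISG20, an interferon-induced exonuclease, rose by 0.52 ± 0.10, and TRIM22 by 0.47 ± 0.09. The median of the 24 was 0.61 in A and 0.11 in B, and no gene passed the test of the difference between populations. IFIT3 gave 1.81 in A and -0.32 in B, IFI44L 1.82 and -0.22, and IFIT1 1.12 and -0.22, and none of these passed. Averaged over the list, control arrays spanned -0.29 to -0.08 in A and 0.09 to 0.22 in B, and miR-28 arrays 0.01 to 0.88 in A and 0.09 to 0.93 in B, with the miR-28 inductions of one population spread more widely than the control inductions. The core of the interferon response element was found in 12 of 19 promoters of the list, 7 of 14 of the class I list and 2.7% of all tested. The 100 bases before the start of ISG20 (chr15:88638916-88639015, plus strand) are printed as the called member with the element in this stretch, in capitals.
ISG20 promoter: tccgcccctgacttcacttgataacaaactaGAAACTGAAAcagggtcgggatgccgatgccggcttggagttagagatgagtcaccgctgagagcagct

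Other lists held scattered calls. Of 20 cytosolic chaperones 5 fell, beside 2.42% lower over all genes. They were DNAJA2 (-1.17), BAG1, HSPH1 (-0.38), DNAJB1 (-0.32) and DNAJA1 (-0.27). Another DNAJA2 probe set, as bright, gave 0.23 ± 0.14 and was not called. The unfolded protein response genes MANF and EDEM1 fell by 0.42 each, and DNAJB9 rose by 0.41. DDIT4, an inhibitor of mTORC1 that amino acid shortage and other stresses induce, was at 3557, 4263 and 4356 on control arrays and 6112, 6926 and 8078 on miR-28 arrays, and rose by 0.76 ± 0.11 (adjusted p 0.000198). It was the one call among 21 genes of the ATF4 response, of which 16 were below 0. MXI1 (0.51) and MXD1 (0.76), which oppose MYC, rose among 22 MYC network genes with a median of -0.01. The second MXD1 probe set gave -0.05 ± 0.27, and the call of MXD1 was lost in 13 of 27 alternative settings and turned in 1.

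G protein genes went both ways, with GNG2 (1.37), RGS20 (0.98) and GNG7 (0.52) higher and RGS13 lower. Single calls came from RAB8B (-0.90) of 24 RAB genes, YWHAH (-0.98) of 7 14-3-3 genes and PEX2 (-0.70) of 10 peroxisome biogenesis genes. HK2 (-0.41) of 28 glycolysis and hypoxia genes, NDUFS1 (-0.27) of 28 complex I genes and JUN (1.44) of 19 immediate early genes were others. Over all genes tested 4.67% were called. The calls of JUN and HK2 were lost in 13 of 27 and 14 of 28 alternative settings. The other RAB8B probe sets gave 0.11 ± 0.15 and -0.60 ± 0.23, neither called. SNUPN, which imports small nuclear ribonucleoproteins, fell by 0.63 ± 0.06 (adjusted p 6.04e-06), and KPNB1, importin beta, by 0.50 ± 0.12. All 6 KPNB1 probe sets were called lower, between -0.50 and -0.72. Of 23 cytosolic ribosomal protein genes and 18 sterol and lipid synthesis genes none was called. In limma no ribosomal protein gene had an unadjusted p under 0.05 and 3 sterol genes did. Of all 45 lists, 42 held at least 1 call, where 4.67% of all genes tested were called. As the lists were written with earlier results of these data known, that count follows in part from the choice. Of the 531 called genes 418 were in no list.

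Populations A and B were then compared. The miR-28 and control populations of one letter are not known to belong together, so the letters are used to set populations side by side. All 531 called genes had the same sign in A and B, and both miR-28 population means lay on one side of both control means for all of them, beside 47.8% of all genes. As the calls come from the mean over both populations, these counts follow in part from the choice. Across all 11380 genes the differences in A and in B had the same sign in 60.1%, and their correlation across genes, which are not independent replicates, was 0.17. Across genes that rose it was 0.55 and across genes that fell 0.59.

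Calls made in 1 population can be looked up in the other, whose arrays they did not use. With the arrays of A alone 48 genes were called, 29 higher and 19 lower. In B, 44 of these had the same sign and 34 also an unadjusted p under 0.05, which 13% of all genes had there. With the arrays of B alone 38 were called, 11 higher and 27 lower, of which 35 had the same sign in A and 28 an unadjusted p under 0.05, against 11.3% of all genes. The 12 genes called in both were APOBEC3G, FGD4, PIK3R3, PLAC8 and RGS20, all higher, and RAB8B, RFC3, SLC37A4, SNUPN, SPCS3, TBC1D4 and WSB2, all lower. Genes called in A that had the opposite sign in B were H2AC6 (0.97 and -0.05), NFYC-AS1 (-0.92 and 0.18), RPL39L (-0.67 and 0.08) and SYT9-AS1 (1.66 and -0.23). Called in B with the opposite sign in A were LINC02064 (0.86 in A and -1.67 in B), LOC401312 (-0.85 and 1.62) and TLR4 (-0.50 and 1.17). These genes were named after their values were seen.

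No gene passed the test of the difference between populations in limma (lowest adjusted p 0.504), although 706 had an unadjusted p under 0.05. The smallest p belonged to CARTPT (-1.66 in A and 1.24 in B), SYT9-AS1, TTTY5 (2.47 and -0.61), TOM1 (-0.86 and 0.98) and ETS2 (-0.43 and 0.54), of which all but ETS2 had a mean intensity under 300. With the 12 arrays alone 1 gene, MOCS1, passed (adjusted p 0.0135), and leaving out 1 array passed at most 1, which was CARTPT, LOC401312 or LOC729291.

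**Figure D3:**
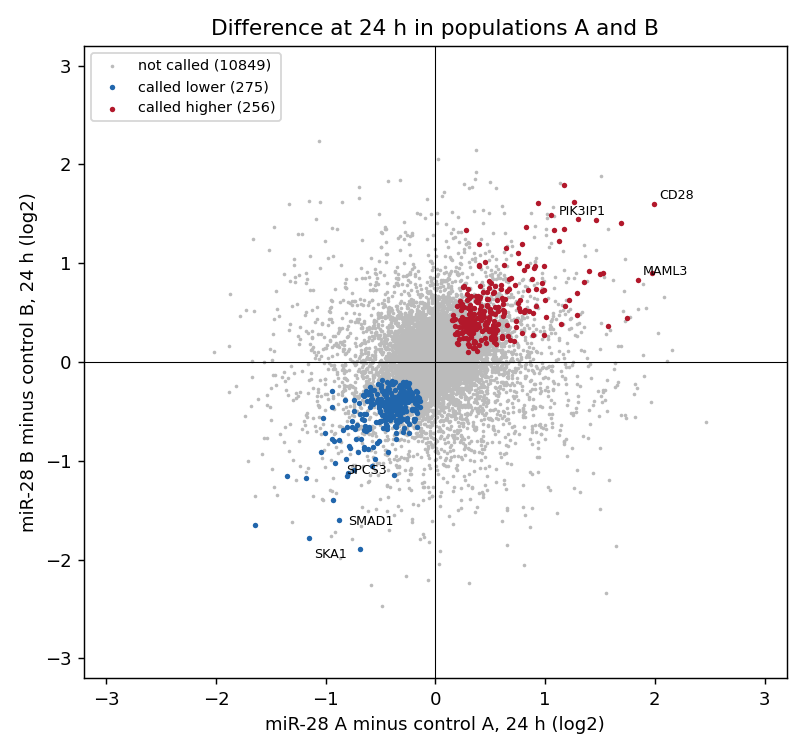
Difference between miR-28 and control cells at 24 h in population A (x axis) and population B (y axis), both log2, for the 11380 genes tested. The 275 genes that fell (blue) lie in the lower left and the 256 that rose (red) in the upper right, while the 10849 others (grey) lie around 0 in all quadrants.

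Other probe sets of a gene gave a further reading. Of the 531 called genes 211 had 1 probe set over the brightness filter and 320 had more. In 249 of the 320, or 77.8%, every probe set had the sign of the one used, beside 52.0% of all genes with 2 or more. In the test of all 22043 probe sets, where 648 or 2.94% were called, 84 of these genes had another probe set called the same way and none had one called the opposite way. Of the 604 other probe sets 512 had the same sign (84.8%, beside 64.3% over all genes). A probe set of the same gene is no replicate and can measure another transcript end.

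Agreement followed brightness. Probe sets within 1 log2 unit of the one used had the same sign in 92.3%, those 1 to 2 units dimmer in 89.6%, those 2 to 4 units dimmer in 82.4% and those more than 4 units dimmer in 65.9%. Their differences were a median of 0.83, 0.73, 0.66 and 0.46 of that of the probe set used. The plain disagreements at similar brightness were few. DNAJA2, an HSP40 cochaperone, gave -1.17 ± 0.17 on one probe set, without overlap of the groups, and 0.23 ± 0.14 on another as bright. COX20, an assembly factor of cytochrome oxidase, gave -0.56 ± 0.12, -0.32 ± 0.10 and 0.31 ± 0.11. MORF4L2-AS1 (-0.98 and 0.43), STXBP4 (-0.54 and 0.06), LZTFL1 (0.97, 1.35 and -0.42) and TMLHE (1.10 and -0.43) were dim, and their values with the opposite sign did not pass. With the second brightest probe set of each gene 58 genes rose and 65 fell, of which 30 and 31 were among the calls above.

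**Figure D4:**
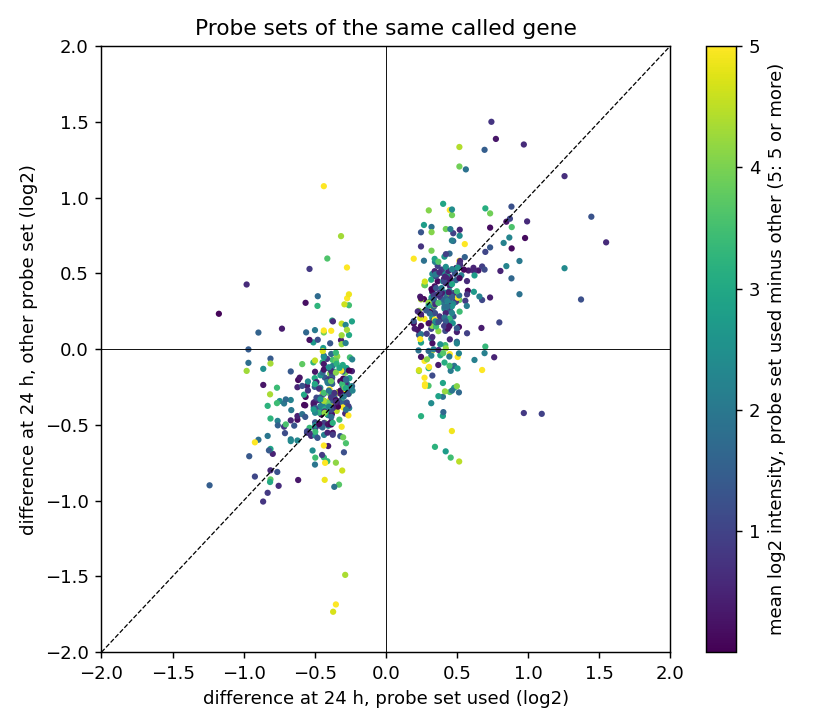
Difference at 24 h (log2) of the probe set used for a called gene (x axis) and of each of its other 604 probe sets (y axis), coloured by how much dimmer the other is. Dark points, of like brightness, lie near the dashed line of equality, and yellow points, at least 5 log2 units dimmer, are spread around 0.

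The called genes were also read at 12 h. As they were chosen by their 24 h values, larger differences at 24 h follow in part from the choice. Of those that rose at 24 h 226 were above 0 at 12 h, and of those that fell 241 were below 0, together 87.9%, beside 60.3% of all genes with the same sign at both times. Their median differences at 12 h were 0.15 and -0.14, against 0.45 and -0.43 at 24 h. At 12 h 52 genes were called (0.457%), and 41 were called the same way at both times. SPCS3, SMAD1, SKA1, RFC3, CCND3, E2F2 and LPP were among those lower at both times, and GNG2 (1.48 at 12 h), MAML3 (1.18) and APOBEC3G (0.85) among those higher. In contrast TP53INP1 (0.32), PIK3IP1 (0.50), PIK3R3 (0.29) and DDIT4 (0.37) had not passed at 12 h, nor had FOXM1 (-0.10), CCNA2 (0.02) and BRCA1 (-0.02). The change of the difference from 12 h to 24 h was not tested here.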

How the data were processed

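RNA was measured on 24 Affymetrix arrays, and the 12 at 24 h are compared here. The authors deposited 1 linear intensity per probe set and array, made with MAS5 per the submitters' processing notes. Version and settings are not given in the sources used here. Of 54675 probe sets 62 were controls and were left out. By the platform annotation 41091 had 1 gene symbol, 1801 several and 11721 none. Of the 41091, 41037 were matched by gene number to a RefSeq table and 54 keep the annotation's symbol. The rest were not used for genes.

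Intensities were taken to log2 after adding 8, their rounded 10th percentile. The brightest probe set by mean log2 stood for a gene, and the 11380 of 19775 genes with a mean above 6.108, the median of all probe sets, were tested. A model of 4 group means was fitted to all 24 arrays with limma 3.58.1 in R 4.3.3, with empirical Bayes, from both sides, with Benjamini-Hochberg adjustment. The median SE was 0.138. The population was no block, because its correlation (statmod 1.5.0) was -0.0229, with which a block gives smaller errors. A model of 8 means tested the difference between populations. Precision is limited by the 2 populations per vector, of which the 6 arrays of a group are repeated inductions.

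Of the genes named, the rule took the 12 largest rises and 12 largest falls among called genes with separate populations, at least 2 agreeing probe sets and another one called. It took the 6 largest each way with 1 probe set and a mean intensity of at least 300, and the 6 with the largest gap between probe sets of like brightness. It took the 5 smallest p for the difference between populations, the 3 called members of each list with the largest statistic, and all measured targets. Other called members of lists were named after their values were seen. Members, lists and rules were chosen with earlier results of these data known. Promoter letters were searched with Python 3.11.15. No list was tested for enrichment. Seed matches in messengers were not analysed here, nor was mature miR-28.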

Additional observations from a re-analysis of the deposited data

Results flagged for a closer look

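For the 159 genes named, the highest and lowest of the 6 arrays of each 24 h group were compared with the others. An array is given here where its gap to the nearest other array exceeds Dixon's critical share of the group's range, which chance gives in about 1 of 20 groups. Of 318 groups 19 had such an array, and in 11 of them it was control population B induction 2, the array with the high ratio of 3' to 5' ACTB intensity. Its part in these values was not tested beyond leaving it out.

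Control B2 was the highest control array for 8 genes. BAG1 was at 4775 on it and at 3969 to 4227 on the other 5 arrays (gap 0.660 of the range). EDEM1 was at 2432 on it and at 1808 to 1994 on the other 5 arrays (gap 0.670 of the range). EZH2 was at 4057 on it and at 3149.9 to 3363 on the other 5 arrays (gap 0.742 of the range). GINS1 was at 7039 on it and at 5421 to 5893 on the other 5 arrays (gap 0.680 of the range). MCM6 was at 16258 on it and at 13844 to 14413 on the other 5 arrays (gap 0.750 of the range). NXT2 was at 1719 on it and at 1238 to 1363 on the other 5 arrays (gap 0.707 of the range). POLD3 was at 2622 on it and at 1557 to 1786 on the other 5 arrays (gap 0.738 of the range). TRIM22 was at 4186 on it and at 2527 to 3013 on the other 5 arrays (gap 0.652 of the range).

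It was the lowest control array for 3 genes. CCL4 was at 108 on it and at 185 to 246 on the other 5 arrays (gap 0.653 of the range). CD86 was at 1527 on it and at 2045 to 2157 on the other 5 arrays (gap 0.845 of the range). RPS25 was at 17935 on it and at 42093 to 49614 on the other 5 arrays (gap 0.838 of the range).

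The remaining arrays were spread over other inductions. CALHM6 was highest at 569.7 on control A3, beside 301 to 363 (gap 0.707). CCNB1 was highest at 7732 on miR-28 A1, beside 6299.6 to 6580.0 (gap 0.787). CDC7 was lowest at 1064 on miR-28 A3, beside 1328 to 1476 (gap 0.676). CDK1 was lowest at 11493 on miR-28 B2, beside 14080.3 to 15397 (gap 0.694). H2AC6 was lowest at 92.7 on miR-28 B3, beside 139 to 175 (gap 0.634). NDUFS1 was lowest at 2883 on miR-28 B2, beside 3561 to 3976 (gap 0.657). STXBP4 was highest at 103 on miR-28 B2, beside 75.2 to 81.3 (gap 0.754). TMLHE was lowest at 164 on miR-28 A2, beside 207 to 228 (gap 0.700).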

How the results depend on the processing

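With other pseudocounts (1 and 32), quantile normalization, the population as a random block, 8 means, the mean of a gene's probe sets or genes of at least 300 intensity, the counts of genes that rose and fell stayed within 1.5 times of 256 and 275. With no filter 131 rose and 168 fell, and with the 12 arrays alone 138 and 175. With the second brightest probe set 58 and 65 did, in population A alone 29 and 19, and in B alone 11 and 27. With the 8 population means of both times as the samples, 0 rose and 0 fell in limma (1671 genes had an unadjusted p under 0.05). Centring on all probe sets, chosen after seeing the data, gave 285 and 118. Leaving out 1 array gave 181 to 268 rises and 207 to 271 falls. Same-numbered inductions of the groups had deviations that correlated between -0.0938 and 0.0683, and the samples were treated as unpaired. Whether equal numbers mark a shared day is not known, and these correlations cannot decide it. With a replicate block 304 rose and 313 fell. Both population means separated for all 531 calls and for all 299 calls made with no filter. Of tests of the difference between populations, 1 gene passed with the 12 arrays alone and 0 to 1 with an array left out. Of 4375 values of named genes over 28 alternatives 3454 kept direction and side, 872 kept direction and lost the call, 16 gained it and 33 turned, 10 of called genes and 23 of genes not called. With the second brightest probe set the called genes that turned were CCNB2 (0.33), CENPO (0.11), DNAJA2 (0.23), MORF4L2-AS1 (0.43), MXD1 (-0.054), RAB8B (0.11), STXBP4 (0.060) and TMLHE (-0.43), and with the mean of probe sets CCNB2 (0.031) and NDUFS1 (0.041). These are other probe sets of the gene, and which reads it better was not tested. Of genes not called, SYT9-AS1 gave -0.25 with the second brightest probe set and ETS2 -0.21 with the mean of probe sets. In A alone ETS2 (-0.43), NME1 (-0.0084) and TOM1 (-0.86) turned, and in B alone CARTPT (1.24), H2AC6 (-0.055), HOXB3 (-0.039), SYT9-AS1 (-0.23) and TTTY5 (-0.61). NME1 gave -0.012 after centring on the genes tested. With 1 array left out CARTPT spanned -0.52 to 0.087, ETS2 -0.045 to 0.20, NME1 -0.00306 to 0.059, RPS25 -0.021 (without control B2) to 0.27 and TOM1 -0.16 to 0.24, none called. The median difference of all genes was 0.02 on the deposited scale, 0.076 after centring on all probe sets and -0.0169 after centring on the genes tested.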
